A study of Arabidopsis thaliana with 12 samples.

Results

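The 10 genes described here control when Arabidopsis thaliana changes from making leaves to making flowers and give the new flower meristem its identity. They are FT (AT1G65480), TSF (AT4G20370), SOC1 (AT2G45660), FUL (AT5G60910), AP1 (AT1G69120), SEP3 (AT1G24260), LFY (AT5G61850), FLC (AT5G10140), SVP (AT2G22540) and FLM (AT1G77080). They were picked by locus, as known flowering genes, from the 27416 genes of the count table. Messenger RNA was sequenced from 2-week-old rosettes in 12 libraries, 3 biological repeats in each of 4 groups. The lsd1-1 group carried a mutation in LSD1, a zinc finger regulator of cell death and stress responses. The LSD1-GFP group expressed LSD1 joined to green fluorescent protein from the constitutive 35S promoter. The LSD1-GR+DEX group expressed LSD1 joined to the glucocorticoid receptor from the same promoter, and its seedlings, grown on nylon mesh, were moved to medium with 30 µM dexamethasone, the steroid that activates the receptor. The untreated wild type (WT) was the accession Ws-0 (Wassilewskija), the background named for the series, and all plants grew in a 16 h photoperiod. LSD1-GR plants without dexamethasone and WT plants given it were not analysed here, so the transgene, the steroid and the transfer cannot be told apart in that group. The sources used here state neither the number of plants pooled per library, nor the number of transformed lines, nor the hour of harvest.

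In Arabidopsis, long days act through the clock-linked protein GI and the regulator CO to switch on FT and its close relative TSF in the phloem of leaves. The FT protein travels to the shoot tip, where with FD it activates the MADS-box genes SOC1, FUL, AP1 and SEP3, and LFY and AP1 then fix the fate of the flower meristem. SVP, FLM and FLC are MADS-box repressors that hold FT and SOC1 down, and the SPL factors of the age pathway bind the letters GTAC in front of SOC1, FUL and AP1.

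In the LSD1-GFP rosettes the promoters and identity genes SOC1, FUL and SEP3 fell and the repressor SVP rose against WT. AP1 fell too, in a call that was lost with DESeq2 and when any of 4 libraries was left out. SVP stood 2.12-fold higher and FUL 5.46-fold lower in LSD1-GFP. In the LSD1-GR+DEX rosettes SOC1 and FUL fell, and SVP was not called. In the lsd1-1 rosettes SEP3 alone among the 7 members tested was called lower, and this call was lost under several alternative settings. TSF, LFY and FLC were near 0 in all 12 libraries and failed the low-count filter, and edgeR run with no filter called none of them in any comparison.

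Libraries held between 9781360 and 11503432 counted reads. Levels are given as CPM, the reads of a gene per total reads of its library on the usual scale, adjusted with edgeR's TMM method, and a gene was called when its adjusted p over the 19487 genes tested was below 0.05. LSD1 itself had 3 counts over the lsd1-1 libraries against 756 over the WT libraries, and it stood 99.7-fold higher in LSD1-GFP and 7.55-fold higher in LSD1-GR+DEX than in WT. The summed CPM of 4 leaf mesophyll markers ranged from 17860 to 20280 in lsd1-1, 27230 to 32460 in LSD1-GFP, 15710 to 17620 in LSD1-GR+DEX and 18150 to 23020 in WT. RBCS1A made up most of each sum, with means of 14380, 21700, 12330 and 15610 CPM in that order. In LSD1-GFP 3 of the 4 markers were called higher, where 15.5% of all genes were. In LSD1-GR+DEX 2 of the 4 were called lower, where 16.7% of all genes were. Of those 2, RBCS1A lost its call without WT replicate 3 or LSD1-GR+DEX replicate 1 or 3, leaving 1. CA1 and LHCB3 were not called there, with means of 2696 and 1232 CPM against 2118 and 1195 CPM in WT. DESeq2 called 3 of the 4 in that group, and with replicate numbers as a block CA1 was higher there (0.36, adjusted p = 0.000978). The summed CPM of 7 root markers was 2429 to 2745 in LSD1-GR+DEX against 967 to 1263 in WT. PYK10 made up most of that sum, with means of 2517 CPM in LSD1-GR+DEX and 1140 CPM in WT. Where 19.3% of all genes were called higher in LSD1-GR+DEX, 6 of the 7 root markers were. Of these, PYK10, AGL17 and AGL21 kept their calls without any library in turn. EXPA7 kept its call in 1 of the 6 omissions, and RSL4 and AGL12 kept theirs in 2 each. Those 3 all lost their calls without WT replicate 1, WT replicate 2 or LSD1-GR+DEX replicate 3. With replicate numbers as a block PYK10 was also higher in LSD1-GFP (0.34, adjusted p = 0.0137), as was the leaf marker LHCB3 in lsd1-1 (0.31, adjusted p = 0.00303). Material labelled rosette held root-marker RNA in every group. The 5 phloem companion cell markers summed to 198 to 287 in lsd1-1, 218 to 343 in LSD1-GFP, 225 to 274 in LSD1-GR+DEX and 194.5 to 361 in WT, and edgeR called 0 of 5 in each comparison with WT, with 0 at an unadjusted p below 0.05 and 0 by DESeq2. With replicate numbers as a block SEOR1 was lower in LSD1-GFP (-0.29, adjusted p = 0.0472). The 9 shoot meristem and boundary markers, 5 of which passed the low-count filter, summed to 62.5 to 76.5 in lsd1-1, 68.2 to 89.9 in LSD1-GFP, 62.3 to 77.0 in LSD1-GR+DEX and 63.9 to 89.7 in WT. Of these, CUC3 alone was called, higher in LSD1-GFP but not with DESeq2 or without WT replicate 1 or 2 or LSD1-GFP replicate 1 or 2. With the block CLV1 was lower in lsd1-1 (-0.28, adjusted p = 0.0344), and the defining stem cell markers were near 0, with WUS at 0, 1, 3 and 1 counts and CLV3 at 2, 0, 1 and 1 counts over the lsd1-1, LSD1-GFP, LSD1-GR+DEX and WT libraries. In such bulk samples fewer cells of a type and less RNA per cell cannot be told apart, and the part of tissue make-up in the results that follow was not tested.

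The 250 bases before the start of the 5 members called in LSD1-GFP against WT are shown because these are the genes whose levels moved there, SOC1, FUL, AP1 and SEP3 down and SVP up, and SOC1, FUL and AP1 are known SPL targets. The sequences are from RefSeq, build TAIR10.1, which is Columbia sequence and not Ws-0, and each is written 5′ to 3′ on the gene's own strand with GTAC in capitals.

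FUL (chr5:24506270-24506519, minus strand): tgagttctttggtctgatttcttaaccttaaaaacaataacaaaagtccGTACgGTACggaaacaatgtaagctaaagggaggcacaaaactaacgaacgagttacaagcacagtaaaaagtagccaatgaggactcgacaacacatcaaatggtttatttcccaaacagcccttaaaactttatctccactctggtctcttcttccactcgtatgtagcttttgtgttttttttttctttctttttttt

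SEP3 (chr1:8596124-8596373, minus strand): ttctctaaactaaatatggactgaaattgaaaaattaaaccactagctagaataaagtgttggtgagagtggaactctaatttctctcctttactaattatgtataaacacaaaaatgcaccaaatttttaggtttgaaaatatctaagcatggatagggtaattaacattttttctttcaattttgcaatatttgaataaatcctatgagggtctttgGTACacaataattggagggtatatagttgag

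AP1 (chr1:25986350-25986599, minus strand): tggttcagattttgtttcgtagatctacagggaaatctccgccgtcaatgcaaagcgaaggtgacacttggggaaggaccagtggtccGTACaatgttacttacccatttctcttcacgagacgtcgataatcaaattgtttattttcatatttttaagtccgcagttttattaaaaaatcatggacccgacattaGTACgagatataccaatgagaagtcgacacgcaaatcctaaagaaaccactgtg

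SOC1 (chr2:18811126-18811375, minus strand): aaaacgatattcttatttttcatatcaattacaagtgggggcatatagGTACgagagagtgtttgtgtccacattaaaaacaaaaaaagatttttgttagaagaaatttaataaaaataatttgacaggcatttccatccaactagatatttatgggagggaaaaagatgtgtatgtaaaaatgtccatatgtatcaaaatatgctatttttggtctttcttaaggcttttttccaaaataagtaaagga

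SVP (chr2:9579397-9579646, plus strand): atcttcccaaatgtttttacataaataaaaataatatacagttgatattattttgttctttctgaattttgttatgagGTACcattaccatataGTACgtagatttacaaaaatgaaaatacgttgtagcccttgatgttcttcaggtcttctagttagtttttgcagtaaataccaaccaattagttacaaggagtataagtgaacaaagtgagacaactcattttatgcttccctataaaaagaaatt

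Each of the 5 regions held GTAC, which reads the same on both strands. A pair of copies stood almost side by side in FUL, beginning 201 and 196 bases before the gene, and single copies in SEP3 and SOC1 began 31 and 202 bases before it. Of the 10 members, 8 held GTAC in this window, LFY and FLM being the exceptions, against 34.4% of the 26709 regions of the same length in front of annotated protein-coding genes. The members include known SPL targets, so this share tests no excess. GTAC stood before SVP, which rose in LSD1-GFP, before FT, which was not called against WT, and before TSF and FLC, which failed the low-count filter. The G-box, CACGTG, also the same on both strands, was present in 1 member, FLC, where it shares a base with a GTAC, against 6.58% of all regions. The CArG box, the MADS-box recognition motif, was searched only in its strict form CCWWWWWWGG, where W is A or T. That form was found on either strand in 0 of 10 members, against 2.55% of all regions. Looser forms were not searched, and the printed SOC1 region holds ctatttttgg, 1 letter off the strict form.

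The florigen gene FT was rare in every group. FT had 0.678, 1.02 and 0.892 CPM in lsd1-1, 0.403, 0.378 and 1.02 CPM in LSD1-GFP, 1.25, 1.83 and 1.14 CPM in LSD1-GR+DEX, and 0.482, 1.08 and 1.23 CPM in WT. These values rest on 4 to 19 reads per library, and each group overlapped WT. The log2 difference of FT from WT was -0.11 ± 0.43 in lsd1-1 (SE, adjusted p = 0.929), -0.64 ± 0.47 in LSD1-GFP (adjusted p = 0.337) and 0.58 ± 0.40 in LSD1-GR+DEX (adjusted p = 0.278). Between the transgenic groups FT was higher in LSD1-GR+DEX than in LSD1-GFP, by 1.23 ± 0.44 on the log2 scale (adjusted p = 0.0458), with no overlap of libraries. That call was lost with DESeq2 (adjusted p = 0.0907), with no low-count filter (0.0569) and in a fit of these 2 groups alone (0.0656). It was also lost without replicate 1 or 2 of LSD1-GFP or any replicate of LSD1-GR+DEX. Over all 6 omissions the difference ranged from 0.98 to 1.82.

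TSF, the second florigen gene, lies beside LSD1 on chromosome 4. TSF occupies bases 11000771 to 11003010 on the minus strand and LSD1 bases 11004503 to 11006968 on the plus strand, so that they point away from each other with 1492 bases between them. TSF had 2, 0 and 4 reads in lsd1-1, 0, 0 and 0 reads in LSD1-GFP, 0, 1 and 0 reads in LSD1-GR+DEX, and 0, 2 and 0 reads in WT. The ratio of lsd1-1 to WT was 2.98 with an exact 95% counting interval of 0.533 to 30.2, which includes no difference. The count of 0 in LSD1-GFP allows up to 0.0988 CPM over the group, and 6 reads in lsd1-1 set against 3 gave a ratio of 1.88. That ratio leaves out the counting error of the 6 reads. The exact 95% counting interval of lsd1-1 to LSD1-GFP begins at 1.11, and with no low-count filter edgeR did not call the difference (adjusted p = 0.138). Of the 5 counted genes on each side of LSD1, TSF and AT4G20420 failed the low-count filter, and edgeR called none of the other 8 in any comparison with WT. AT4G20390, on the other side of LSD1, shares 154 bases with it on the same strand, and it was among the 8.

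**Figure D1:**
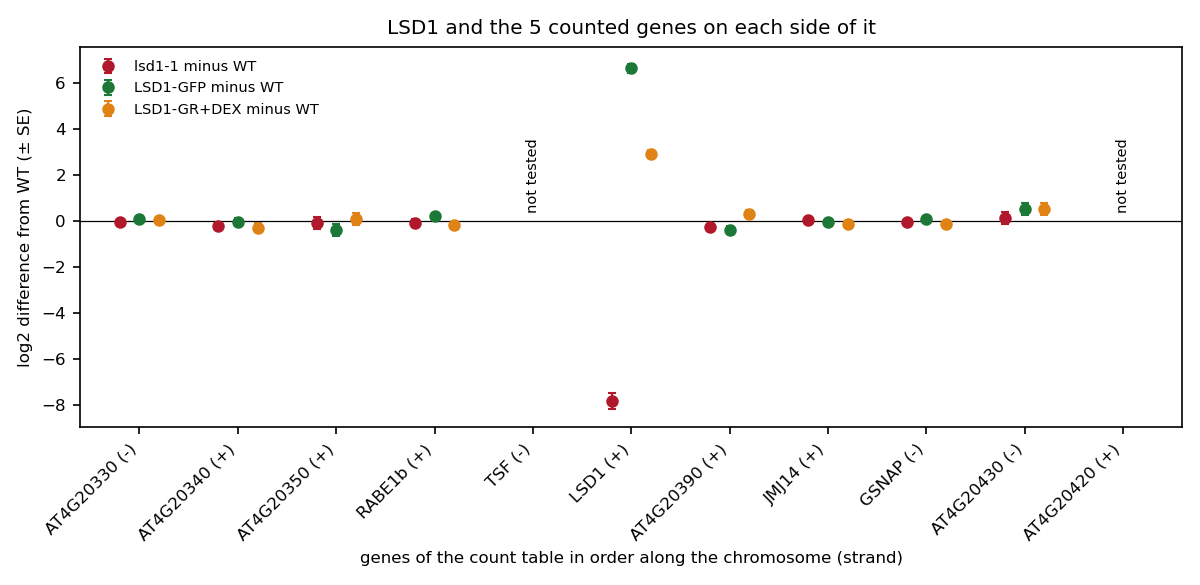
Log2 difference from WT (± SE) of LSD1 and the 5 counted genes on each side of it, in order along the chromosome with the strand in brackets, for lsd1-1, LSD1-GFP and LSD1-GR+DEX. LSD1 stands far from 0, 99.7-fold higher in LSD1-GFP and 7.55-fold higher in LSD1-GR+DEX. No tested neighbour was called, the largest difference being 0.542 ± 0.255 for AT4G20430 in LSD1-GFP, and TSF failed the low-count filter.

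SOC1, the MADS-box gene that gathers signals from several flowering pathways, was the most abundant member in WT. SOC1 had 100.5, 112.7 and 95.07 CPM in lsd1-1, 80.9, 64.61 and 80.33 CPM in LSD1-GFP, 75.26, 67.77 and 72.86 CPM in LSD1-GR+DEX, and 110, 107.5 and 103.5 CPM in WT. Every library of both transgenic groups lay below every WT library, and lsd1-1 overlapped WT. SOC1 fell in LSD1-GFP by 0.51 ± 0.09 on the log2 scale (SE, adjusted p = 0.00107) and in LSD1-GR+DEX by 0.57 ± 0.09 (adjusted p = 0.000335), calls that held under every alternative tried. In lsd1-1 the log2 difference was -0.06 ± 0.09 (adjusted p = 0.794). LSD1-GR+DEX and LSD1-GFP differed by -0.06 ± 0.09 (adjusted p = 0.638), and lsd1-1 stood above both, by 0.45 ± 0.09 over LSD1-GFP (adjusted p = 0.00272) and 0.51 ± 0.09 over LSD1-GR+DEX (adjusted p = 0.00193).

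FUL, a close relative of AP1 that acts in the inflorescence meristem and later in the fruit, varied most among the 7 members tested. FUL had 10.07, 11.32 and 11.15 CPM in lsd1-1, 2.214, 2.176 and 3.25 CPM in LSD1-GFP, 7.249, 6.921 and 6.771 CPM in LSD1-GR+DEX, and 14.95, 12.38 and 14.46 CPM in WT. The 4 groups did not overlap each other at any point, and their order from the lowest was LSD1-GFP, LSD1-GR+DEX, lsd1-1 and WT. FUL fell by 2.45 ± 0.17 on the log2 scale in LSD1-GFP (SE, adjusted p = 4.9e-07) and by 0.99 ± 0.14 in LSD1-GR+DEX (adjusted p = 0.000129), and both calls held under every alternative. In lsd1-1 the log2 difference was -0.36 ± 0.14 and did not pass (adjusted p = 0.14). The other neighbours in the order differed, with LSD1-GR+DEX above LSD1-GFP by 1.46 ± 0.18 (adjusted p = 2.84e-05) and lsd1-1 above LSD1-GR+DEX by 0.64 ± 0.15 (adjusted p = 0.00802).

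SEP3, which joins the other MADS-box proteins into the complexes that specify floral organs, was lowest in LSD1-GFP. SEP3 had 1.744, 1.67 and 1.159 CPM in lsd1-1, 0.503, 0.568 and 0.508 CPM in LSD1-GFP, 2.058, 2.115 and 1.526 CPM in LSD1-GR+DEX, and 2.893, 2.603 and 2.646 CPM in WT. Every library of the 3 other groups lay below every WT library. SEP3 fell in LSD1-GFP by 2.34 ± 0.30 on the log2 scale (SE, adjusted p = 6.24e-05), a call that held under every alternative, and the 3 LSD1-GFP libraries held only 5 or 6 reads of it each. In lsd1-1 it fell by 0.83 ± 0.24 (adjusted p = 0.0491), but the call was lost with DESeq2 (adjusted p = 0.169), with no low-count filter (0.0827), in a fit of lsd1-1 and WT alone (0.0775) and without any of the 6 libraries in turn, where the difference ranged from -0.93 to -0.67 and adjusted p from 0.0798 to 0.186. With replicate numbers as a block the lsd1-1 call stayed (adjusted p = 0.0349). In LSD1-GR+DEX the difference of -0.51 ± 0.24 did not pass (adjusted p = 0.105). LSD1-GR+DEX stood above LSD1-GFP by 1.83 ± 0.31 (adjusted p = 0.000463) and lsd1-1 above LSD1-GFP by 1.51 ± 0.32 (adjusted p = 0.00317).

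AP1, the gene that gives young flower meristems and their outer organs their identity, was also lowest in LSD1-GFP. AP1 had 1.937, 1.948 and 2.051 CPM in lsd1-1, 0.604, 0.284 and 0.711 CPM in LSD1-GFP, 1.611, 0.865 and 1.526 CPM in LSD1-GR+DEX, and 0.771, 1.346 and 1.89 CPM in WT. The LSD1-GFP libraries, with 3 to 7 reads each, all lay below the WT libraries, the lsd1-1 libraries all lay just above them, and LSD1-GR+DEX overlapped WT. AP1 fell in LSD1-GFP by 1.32 ± 0.43 on the log2 scale (SE, adjusted p = 0.0337). The call was lost with DESeq2 (adjusted p = 0.0512) and without WT replicate 2 or 3 or LSD1-GFP replicate 1 or 2, where the difference ranged from -1.604 to -0.998 over all 6 omissions. The lsd1-1 difference of 0.56 ± 0.34 did not pass (adjusted p = 0.395), and that of LSD1-GR+DEX was 0.00 ± 0.35, with a sign that changed between settings. AP1 was 1.88 ± 0.41 higher on the log2 scale in lsd1-1 than in LSD1-GFP (adjusted p = 0.00364), which held in every omission of a library. It was 1.32 ± 0.43 higher in LSD1-GR+DEX than in LSD1-GFP (adjusted p = 0.0303), a call lost with DESeq2 (0.0503) and without LSD1-GFP replicate 1 or 2 or LSD1-GR+DEX replicate 1 or 3. Of the 1251 stretches of 50 bases in the AP1 transcript, 7 also occur in its close relative AT1G26310.

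LFY, the master regulator of flower meristem fate, had 1, 2 and 2 reads in lsd1-1, 1, 1 and 0 in LSD1-GFP, 3, 1 and 1 in LSD1-GR+DEX, and 0, 1 and 1 in WT. The ratio to WT was 2.48 (95% counting interval 0.407 to 26.1) in lsd1-1 and 2.50 (0.41 to 26.3) in LSD1-GR+DEX, so a difference was not detectable at this depth.

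**Figure D2:**
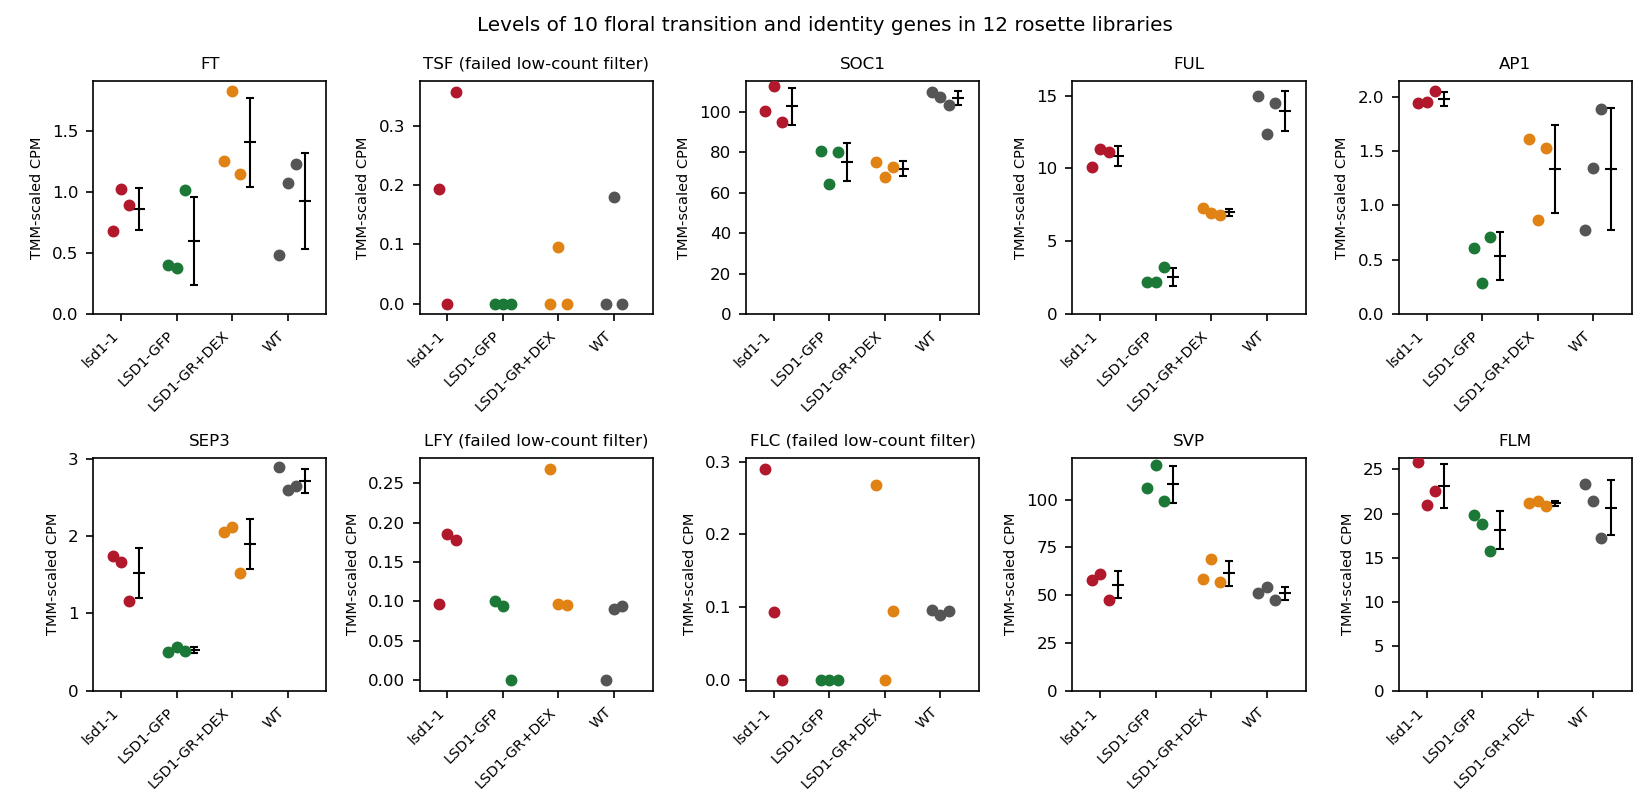
TMM-scaled CPM of the 10 genes, one panel per gene with its own vertical axis, in lsd1-1, LSD1-GFP, LSD1-GR+DEX and WT (points are libraries, bars the mean ± SD of 3, left out for the 3 genes that failed the low-count filter). FUL separates all 4 groups, SVP stands at 99.43 to 118.2 CPM in LSD1-GFP against 47.62 to 54.03 CPM in WT, and SOC1 is lower in both transgenic groups.

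SVP, which represses FT and SOC1, was the only member called higher against WT in any group, and this was in LSD1-GFP. SVP had 58.12, 61.14 and 47.27 CPM in lsd1-1, 106.1, 118.2 and 99.43 CPM in LSD1-GFP, 58.17, 69.02 and 56.93 CPM in LSD1-GR+DEX, and 50.82, 54.03 and 47.62 CPM in WT. LSD1-GFP lay far above the 3 other groups, the LSD1-GR+DEX libraries lay just above WT, and lsd1-1 overlapped WT. SVP rose in LSD1-GFP by 1.09 ± 0.11 on the log2 scale (SE, adjusted p = 1.02e-05), a call that held under every alternative. The differences of 0.27 ± 0.11 in LSD1-GR+DEX (adjusted p = 0.0647) and 0.13 ± 0.11 in lsd1-1 (adjusted p = 0.585) did not pass. SVP was also lower in LSD1-GR+DEX than in LSD1-GFP (log2 difference -0.81 ± 0.11, adjusted p = 5.86e-05) and lower in lsd1-1 than in LSD1-GFP (-0.96 ± 0.11, adjusted p = 2.65e-05).

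FLM, a thermosensory repressor that works with SVP, was the steadiest of the 7 tested. FLM had 25.77, 20.97 and 22.56 CPM in lsd1-1, 19.82, 18.82 and 15.74 CPM in LSD1-GFP, 21.21, 21.44 and 20.88 CPM in LSD1-GR+DEX, and 23.33, 21.45 and 17.2 CPM in WT. All groups overlapped WT, and the log2 differences were 0.16 ± 0.12 in lsd1-1, -0.19 ± 0.13 in LSD1-GFP and 0.04 ± 0.12 in LSD1-GR+DEX (SE, adjusted p = 0.524, 0.289 and 0.85). Set against LSD1-GFP, lsd1-1 was 0.35 ± 0.13 higher (adjusted p = 0.0528), and with replicate numbers as a block this difference passed (0.35 ± 0.10, adjusted p = 0.0128). Of the 965 stretches of 50 bases in the FLM transcript, 12 also occur in its relative AT5G65060, and the counts do not tell apart the splice forms through which FLM is known to act.

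FLC, the repressor that vernalization silences, had 3, 1 and 0 reads in lsd1-1, 0, 0 and 0 in LSD1-GFP, 3, 0 and 1 in LSD1-GR+DEX, and 1, 1 and 1 in WT. The ratio to WT was 1.32 (95% counting interval 0.224 to 9.04) in lsd1-1 and 1.33 (0.226 to 9.11) in LSD1-GR+DEX, and the 0 reads in LSD1-GFP allow up to 0.0988 CPM over the group. Of its 993 stretches of 50 bases, 643 also lie in the antisense RNA AT5G01675, and whether counting used strand is not given in the sources used here.

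Read against all genes, the members moved most in LSD1-GFP. Of the 7 tested there, 1 was called higher and 4 lower, where 15.5% of all genes were called higher and 13.6% lower, or 29.1% in either direction. With DESeq2 the AP1 call was lost, which left 4 of the 7. In LSD1-GR+DEX 0 were called higher and 2 lower, where 19.3% of all genes were called higher and 16.7% lower, or 36% together, so the members' share there was near the background. In lsd1-1 0 were called higher and 1 lower, where 5.19% of all genes were called higher and 3.1% lower, or 8.3% together. The median log2 difference over the 7 was -0.06 in lsd1-1, -0.64 in LSD1-GFP and 0.00 in LSD1-GR+DEX, against -0.01, 0.00 and 0.01 over all genes tested. The members were chosen with earlier results of these data known, so these shares and medians test no excess.

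**Figure D3:**
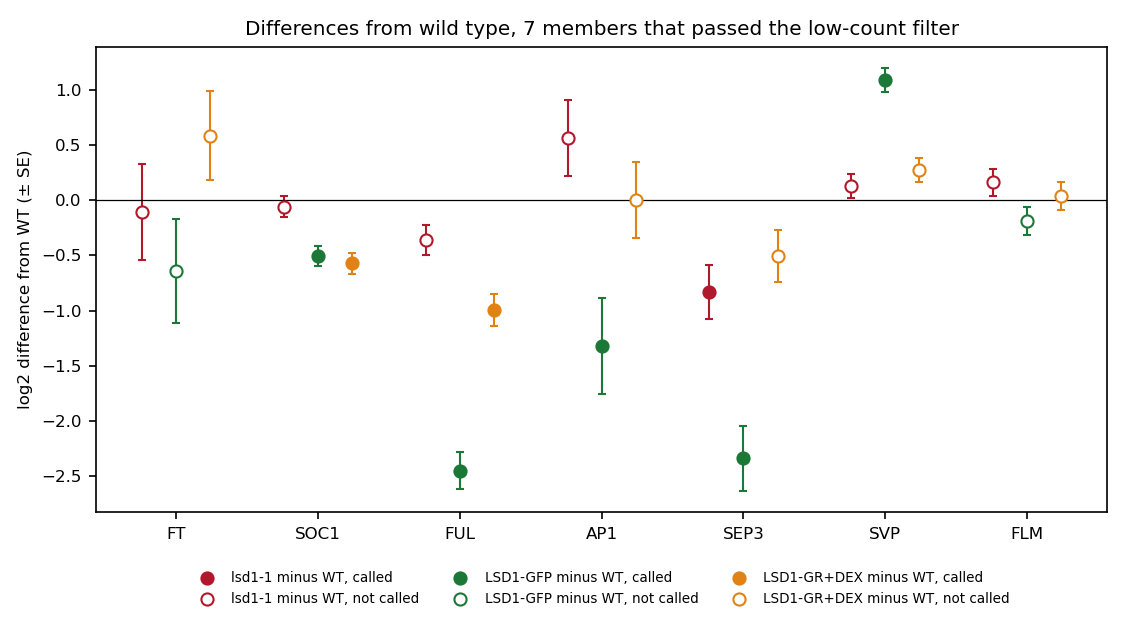
Log2 difference from WT (± SE) of the 7 genes that passed the low-count filter, in lsd1-1, LSD1-GFP and LSD1-GR+DEX (filled points called, open points not). In LSD1-GFP the points of SOC1, FUL, AP1 and SEP3 are filled below 0 and that of SVP is filled above 0 at 1.09.

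The groups that both carry an LSD1 transgene also differed from each other. Set against LSD1-GFP, 4 members were higher in LSD1-GR+DEX (FT, FUL, AP1 and SEP3) and 1 was lower (SVP), where 32.8% of all genes were called. With DESeq2 or the 2 groups alone 3 of these calls were left, with FT not called and AP1 not called or, in the 2 groups alone, not passing the low-count filter. The same number was left without LSD1-GFP replicate 1 or 2 or LSD1-GR+DEX replicate 1 or 3. Set against LSD1-GFP, 4 were higher in lsd1-1 (SOC1, FUL, AP1 and SEP3) and 1 was lower (SVP), where 26.5% were called. Set against LSD1-GR+DEX, 2 were higher in lsd1-1 (SOC1 and FUL) and none lower, where 17.8% were called. The comparisons with WT share the WT libraries, and those with LSD1-GFP share its libraries, so these counts are not independent of each other.

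Between genes, levels can be compared per length of transcript. In WT the order was SOC1 with 74.8 CPM per kb, SVP with 28.4, FLM with 20.4, FUL with 10.8, SEP3 with 2.25, FT with 1.09 and AP1 with 1.03, and TSF, LFY and FLC were at or below 0.0898. In LSD1-GFP SVP stood above SOC1, with 60.2 against 52.6 CPM per kb, the reverse of their order in WT, and FUL was at 1.98 CPM per kb. In lsd1-1 and LSD1-GR+DEX SOC1 stayed above SVP, with 71.8 against 31.0 CPM per kb in lsd1-1 and 50.3 against 34.3 CPM per kb in LSD1-GR+DEX. These orders are descriptions and were not tested.

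Among the members, profiles were compared by the root mean square distance between log2(CPM + 0.5) values, each gene centred on its own mean over the 12 libraries. The closest pairs were SOC1 with FLM (0.28) and FUL with SEP3 (0.43), and the farthest was FUL with SVP (1.29). The spread of a member about its own mean was 0.87 for FUL, 0.62 for SEP3, 0.54 for AP1, 0.44 for SVP, 0.41 for FT, 0.28 for SOC1 and 0.18 for FLM on the same scale. Over all genes tested, the profile nearest to FUL was that of AT5G50915, annotated as a basic helix-loop-helix protein, at a distance of 0.21, with means of 16.7 CPM in lsd1-1, 5.52 in LSD1-GFP, 10.9 in LSD1-GR+DEX and 22.7 in WT. Nearest to SVP were the uncharacterized AT4G32030 (0.07) and MSRB1 (0.09), a methionine sulfoxide reductase with means of 107 CPM in lsd1-1, 192 in LSD1-GFP, 108 in LSD1-GR+DEX and 94.8 in WT. Nearest to SOC1 was AT2G46250 (0.09), to SEP3 AT4G34930 (0.18), to AP1 the asparagine synthase ASN1 (0.21), to FT AT2G39980 (0.16) and to FLM AT1G34030 (0.07). Steady genes lie close to many others on this measure, and the distances carry no test.

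Upstream of FT, the photoperiod gene GI rose in every group while CO, the direct activator of FT, was not called in any. GI averaged 19.4 CPM in lsd1-1, 47.7 in LSD1-GFP, 53.5 in LSD1-GR+DEX and 5.63 in WT, with log2 differences from WT of 1.77 ± 0.32 (SE, adjusted p = 0.00709), 3.08 ± 0.31 (4.46e-05) and 3.24 ± 0.31 (2.11e-05). The CO differences were -0.56 ± 0.39 in lsd1-1 (adjusted p = 0.477), -0.06 ± 0.37 in LSD1-GFP (0.927) and -0.20 ± 0.38 in LSD1-GR+DEX (0.716), and FD, the partner of FT, differed by 0.06 ± 0.34, 0.13 ± 0.34 and 0.32 ± 0.34 in the same groups, with none called. CDF3, of the family of CO repressors, fell in lsd1-1 by 0.24 (adjusted p = 0.0415) and in LSD1-GR+DEX by 0.64 (1.25e-05), and AT1G69570, listed beside it, fell in all 3 groups, by 0.45 in lsd1-1, 0.79 in LSD1-GFP and 1.00 in LSD1-GR+DEX. In lsd1-1 the CDF3 call was lost without any of the 6 libraries in turn (log2 difference -0.27 to -0.218), and that of AT1G69570 without WT replicate 1 or any lsd1-1 replicate (-0.513 to -0.34 over the 6 omissions). TFL1, a relative of FT that holds flowering back, fell in LSD1-GFP to 0.497 CPM against 1.77 CPM in WT (log2 difference -1.82 ± 0.44, adjusted p = 0.00705). Of the 14 photoperiod genes and florigen partners listed, 12 passed the filter, with 1 higher and 2 lower in lsd1-1, 1 higher and 2 lower in LSD1-GFP, and 1 higher and 4 lower in LSD1-GR+DEX. Their medians were -0.22, -0.05 and -0.06, and the block added MFT, higher in lsd1-1 (adjusted p = 0.023), and FTIP1, lower in LSD1-GFP (0.0131). Of 9 clock genes, 0 were higher and 1 lower in lsd1-1, 5 higher and 2 lower in LSD1-GFP, and 2 higher and 3 lower in LSD1-GR+DEX. With replicate numbers as a block, PRR7 (0.75, adjusted p = 9.92e-06) and PRR9 (0.70, 3.82e-05) were also higher in lsd1-1, and DESeq2 called 3 clock genes there. The gene called lower in lsd1-1, ELF3, lost its call without WT replicate 1 or lsd1-1 replicate 3. Beside these photoperiod and clock counts, 8.3% of all genes were called in lsd1-1, 29.1% in LSD1-GFP and 36% in LSD1-GR+DEX. The part of clock genes in the members' results was not tested.

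The SPL genes of the age pathway were mostly lower in LSD1-GR+DEX. Of 8 tested, 0 were higher and 2 lower in lsd1-1, 1 higher and 3 lower in LSD1-GFP, and 0 higher and 6 lower in LSD1-GR+DEX, with medians of -0.18, -0.16 and -0.62. Among all genes tested, 8.3%, 29.1% and 36% were called in the same groups. SPL3 averaged 26.2 CPM in lsd1-1, 26.1 in LSD1-GFP, 16.4 in LSD1-GR+DEX and 42.4 in WT, and it fell by 0.69 (adjusted p = 0.0113), 0.70 (0.00329) and 1.37 (2.21e-05) on the log2 scale. Without WT replicate 1 the lsd1-1 call of SPL3 was lost, which left 1 SPL gene called there, and with a library left out 4 to 6 were called in LSD1-GR+DEX. SPL4 and SPL5, which with SPL3 act on FUL and AP1 in the shoot tip, fell by 1.08 and 1.18 in LSD1-GFP (adjusted p = 0.00854 and 0.000274) and by 1.15 and 1.14 in LSD1-GR+DEX (0.0046 and 0.000234).

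The AP2-type and TEM repressors of FT went in both directions. Of 8 tested, edgeR called 0 in lsd1-1 (1 at an unadjusted p below 0.05, 0 by DESeq2), 1 higher and 1 lower in LSD1-GFP, and 3 higher and 1 lower in LSD1-GR+DEX, with medians of 0.05, 0.26 and 0.34. With replicate numbers as a block, 4 were higher and 1 lower in LSD1-GFP and 1 was lower in lsd1-1. Without the block, 8.3%, 29.1% and 36% of all genes were called in lsd1-1, LSD1-GFP and LSD1-GR+DEX. SMZ averaged 12.9 CPM in LSD1-GR+DEX against 3.77 CPM in WT (log2 difference 1.77 ± 0.24, adjusted p = 7.47e-05). TOE2 rose by 0.63 in LSD1-GFP (adjusted p = 0.00264) and 0.73 in LSD1-GR+DEX (0.000752), TEM1 rose by 0.85 in LSD1-GR+DEX (0.00299), and SNZ fell by 0.78 in each (0.000906 and 0.000668).

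Of the 16 relatives and regulators of FLC, 13 passed the filter, and edgeR called 0 in lsd1-1 (1 at an unadjusted p below 0.05, 0 by DESeq2), 0 higher and 3 lower in LSD1-GFP, and 0 higher and 4 lower in LSD1-GR+DEX, with medians of -0.10, -0.09 and -0.18. For all genes the shares called lower were 13.6% in LSD1-GFP and 16.7% in LSD1-GR+DEX, or 29.1% and 36% in either direction. With replicate numbers as a block, 5 were lower in LSD1-GFP and 1 in lsd1-1. FCA, a repressor of FLC in the autonomous pathway, fell by 0.34 in LSD1-GFP (adjusted p = 0.0257) and 0.53 in LSD1-GR+DEX (0.00144), and SUF4, an activator of FLC, fell by 0.40 (0.00208) and 0.30 (0.00988) in the same groups. The FCA call in LSD1-GFP was lost without WT replicate 3 or LSD1-GFP replicate 1 or 2, and 1 gene of the list was called without LSD1-GFP replicate 1 or without its replicate 2. Without LSD1-GR+DEX replicate 1 the SUF4 call in that group was lost and 2 genes of the list were called.

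Other MADS-box genes of the flower were low, and 3 of those tested fell in LSD1-GFP. SEP4 averaged 0.76 CPM in LSD1-GFP against 3.34 CPM in WT and fell by 2.12 ± 0.28 on the log2 scale (SE, adjusted p = 9.97e-05), and SEP2 averaged 0.364 against 1.67 CPM and fell by 2.18 ± 0.56 (0.00948). SEP1 fell by 1.38 ± 0.44 in LSD1-GFP (adjusted p = 0.0302), a call lost in a fit of the 2 groups alone and without WT replicate 1, WT replicate 2 or LSD1-GFP replicate 3, each of which left 1 floral organ marker called. The block added PI, lower in LSD1-GFP (-0.77, adjusted p = 0.0473). AGL24, a promoter of flowering that works with SOC1, rose in LSD1-GFP by 0.41 ± 0.10 (adjusted p = 0.0082). AGL14, which is also expressed in roots, rose in LSD1-GR+DEX by 1.18 ± 0.31 (adjusted p = 0.00835). The 7 root markers, mostly PYK10, summed to 2429 to 2745 CPM in that group and 967 to 1263 CPM in WT. The part of root tissue in the AGL14 result was not tested. Of the 10 MADS-box relatives, 5 passed the filter, and edgeR called 0 in lsd1-1 (0 at an unadjusted p below 0.05, 0 by DESeq2), 1 higher and 1 lower in LSD1-GFP, and 1 higher and 0 lower in LSD1-GR+DEX, with medians of 0.17, 0.13 and 0.35. In LSD1-GR+DEX 2 were called with DESeq2, with no filter, without any WT replicate and without LSD1-GR+DEX replicate 2. Among the relatives that failed the filter, AGL71 had 53 counts over the LSD1-GR+DEX libraries against 7 over the WT libraries. AGL72 had 8 against 2, AGL79 12 against 8, AGL6 1 against 4 and AT1G26310 0 in both. The share of all genes called by edgeR was 8.3% in lsd1-1, 29.1% in LSD1-GFP and 36% in LSD1-GR+DEX. Of the 5 floral organ markers, 3 passed, and edgeR called 0 in lsd1-1 and 0 in LSD1-GR+DEX (0 at an unadjusted p below 0.05, 0 by DESeq2 in both) and 2 lower in LSD1-GFP, with medians of 0.03, -0.42 and -1.38 in that order. The floral organ markers summed to 5.35 to 7.94 CPM in lsd1-1, 2.44 to 3.02 CPM in LSD1-GFP, 3.85 to 6.26 CPM in LSD1-GR+DEX and 4.91 to 7.72 CPM in WT. The sum of these markers was lower in LSD1-GFP than in WT, as were AP1 and SEP3. AG was not lower, at 0.333 CPM in LSD1-GFP and 0.311 CPM in WT, on 10 counts each. The share of flower-forming tissue in each library was not tested.

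**Figure D4:**
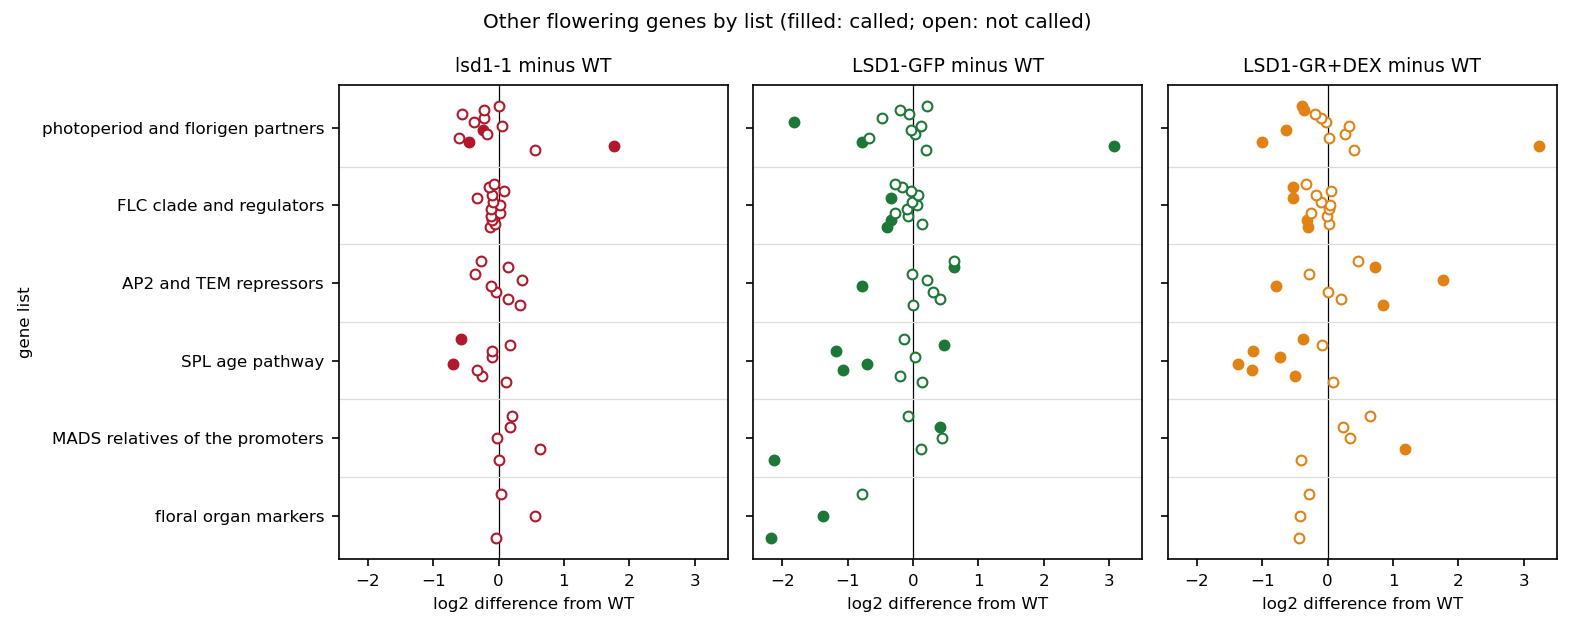
Log2 difference from WT of each tested gene in 6 lists of flowering genes, one panel per group (lsd1-1, LSD1-GFP, LSD1-GR+DEX), with filled points called and open points not. In LSD1-GR+DEX 6 of 8 SPL genes are filled below 0, and the rightmost photoperiod point in every panel is GI.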

How the data were processed

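The 12 libraries were made from rosette RNA with a stranded poly(A) kit, per the labels' protocols. The deposited values are raw read counts per gene made by the authors. The submitters' processing notes name Trimmomatic 0.30, GSNAP, HTSeq 0.6.1 and build TAIR10. The strand setting of the counting is not given in the sources used here. Counts were tested with edgeR 4.0.16 in R 4.3.3: genes kept by filterByExpr with a minimum count of 10, TMM scaling, a quasi-likelihood fit over all 12 libraries and Benjamini-Hochberg adjustment over 19487 genes, two-sided. The standard error was the log2 difference divided by the square root of F. The fit was tested on simulated counts.

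The 10 members and all lists were chosen with earlier results of these data known. Members, called genes of the lists and the 3 nearest profiles were named by rule, and CO and FD in every comparison. Deviations of same-numbered libraries from their group means correlated at 0.193 to 0.422 for lsd1-1 and WT, 0.233 to 0.507 for LSD1-GFP and WT, and 0.158 to 0.376 for lsd1-1 and LSD1-GFP, so a fit with the replicate number as a block was given there as a paired alternative. Correlations for LSD1-GR+DEX were 0.036 to 0.34 with WT, -0.028 to 0.36 with LSD1-GFP and 0.02 to 0.31 with lsd1-1. Each lowest value was that of replicate 1, the only one below the limit of 0.1 set for pairing. Other alternatives were RLE scaling, no low-count filter, a fit of the 2 groups alone, DESeq2 1.42.0 and leaving out each library. Counting intervals and limits (3 counts for a count of 0) cover counting error only. Upstream regions came from RefSeq TAIR10.1.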

Additional observations from a re-analysis of the deposited data

How the results depend on the processing

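The calls of SOC1, FUL, SEP3 and SVP in LSD1-GFP and of SOC1 and FUL in LSD1-GR+DEX against WT held under every alternative. Of 458 recomputed member differences, 412 kept direction and side of the threshold, 27 lost the call, 4 gained it and 15 changed sign. The number of members called in lsd1-1 against WT was 0 with no filter, with 2 groups alone and with DESeq2, and 0 to 0 with each library left out. Against LSD1-GFP, 3 members were called in LSD1-GR+DEX with 2 groups alone and with DESeq2, and 3 to 5 with a library left out. Genes called in lsd1-1 against WT numbered 2889 with the replicate block, against 1617 without it. With a library left out they numbered 764 to 1375: 764 without WT replicate 1, 1060 without WT replicate 3, 1053 when lsd1-1 lost its replicate 1 and 975 when it lost replicate 2. In lsd1-1 against LSD1-GR+DEX 5335 were called with the block, against 3469, and 2058 to 3502 with a library left out, with 2058 when lsd1-1 lost its replicate 1 and 2236 when it lost replicate 3. In LSD1-GR+DEX replicate 1, but not the others, fell below the limit set for pairing with each other group. There the block raised SVP past the threshold against WT (0.27, adjusted p = 0.00394).

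Sign changes were confined to differences that no test called. AP1 in LSD1-GR+DEX against WT was -0.011 with RLE, -0.021 with no filter, 0.002 with the replicate block, -0.022 with 2 groups alone, -0.014 with DESeq2 and -0.286 to 0.324 with a library left out. With a library left out, FT in lsd1-1 against WT ranged from -0.402 to 0.134 and FLM in LSD1-GR+DEX against WT from -0.081 to 0.115. FD against WT ranged from -0.196 to 0.236 in lsd1-1, -0.126 to 0.287 in LSD1-GFP and -0.008 to 0.54 in LSD1-GR+DEX, and CO in LSD1-GFP from -0.741 to 0.303. The cause of these changes was not tested. The list alternatives were added after seeing the data. Of 198 recomputed list counts 174 stayed within 1.5 times. FT, AP1, TSF, LFY and FLC are limited by depth.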
